A study of Rattus norvegicus with 35 samples.

Results

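The bacteria of the rat colon were compared between animals given footshocks and control animals. Libraries were chosen by their labels alone, with tissue given as Colon and treatment given as Shocked or Control. This gave 18 of the series' 35 libraries, 10 of control colon (numbered 1 to 10) and 8 of shocked colon (numbered 11 to 18). The other libraries came from faeces of the same 2 treatments (9 control, 8 shocked) and supply values beside those of colon. The labels give the species, the tissue and the treatment. No strain, sex or age of the rats is given in the sources used here, nor the strength, number or timing of the shocks. Libraries are numbered in the labels, but nothing says that they stem from separate animals. The p-values therefore measure only the spread between libraries, which may be technical.

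Footshock is an unavoidable electric stimulus to the feet and is used in rodents to model post-traumatic stress disorder, a condition that often occurs together with irritable bowel syndrome. The colon holds the densest bacterial community of the body, most of it strict anaerobes that ferment fibre and mucus into short-chain fatty acids. Stress is known to alter gut motility, mucus secretion and barrier function, all of which shape where bacteria can live. The 16S ribosomal RNA gene is present in every bacterium, and its variable stretches differ between species. Amplifying and sequencing the V3-V4 stretch therefore gives a profile of the relative amounts of bacterial 16S sequences in a sample. The study's stated question was whether the footshock model suits research on the gut and brain and on irritable bowel syndrome, and the colon comparison addresses its bacterial side.

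Each library was deposited as read counts per sequence feature, that is, per distinct or clustered 16S sequence. Features carry a code, and the files do not pair these codes with names of bacteria or with sequences. Features are therefore described by their rank, where rank 1 had the highest mean share of reads over the 18 colon libraries, and no genus or phylum is reported. Labelled tissue could not be checked against marker genes, since the libraries hold only bacterial amplicons. A share is a feature's percentage of its library's reads. Shares are relative, so fewer bacteria of one kind and more of all the others cannot be told apart.

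Colon libraries were shallow and uneven in depth. Control colon held 638 to 16155 reads (median 4093) and shocked colon 448 to 9418 (median 1824.5), while faecal libraries held 4703 to 24251. In geometric means shocked colon libraries were 2.40-fold shallower (difference -1.26 on the log2 scale, two-sided exact permutation test, p = 0.0777). That difference was past the threshold when control 8 (p = 0.0216) or shocked 14 (p = 0.0249) was left out of the exact permutation test. A feature with no reads could still have made up a few reads' worth of a library, and this floor, set at 3 reads, averaged 0.111% of a control library and 0.244% of a shocked library (range 0.0186% to 0.670%). Floors cover counting error only, because PCR reads without molecular identifiers are not independent molecules. The lowest count above 0 in the data was 2. If single reads were dropped, a floor of 3 reads is too low and ratios to it are too high.

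Control 1 stood apart from the other colon libraries. The features of rank 1 and 2 made up 0.662% and 0.501% of its reads, against at least 2.45% and 2.52% in each other control. Rank 3 made up 14.9% of it, against 15.5% of shocked 16. Ranks 7 and 9 were unread in it, as both were in control 7 and shocked 13, and it alone lacked rank 4. Its mean Bray-Curtis distance to the faecal libraries was 0.511, against 0.602 to 0.832 for the other colon libraries (the distance runs from 0 for identical shares to 1 for no shared feature). Its mean distance to the other controls was 0.678, against 0.490 to 0.644 for the rest. Results that rest on it are given with and without it. Whether it holds faecal material was not tested.

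The features called between control and shocked colon were of low to middling abundance and were read in 1 group alone. Of 598 features read in colon, 95 had reads in 5 or more of the 18 libraries and were tested. They held 83.1% ± 7.17 of control reads (SD, n = 10) and 85.3% ± 6.69 of shocked reads (SD, n = 8). Of these 95, 8 were called, which is 8.42% of those tested (edgeR quasi-likelihood F test on counts, threshold of 0.05 after Benjamini-Hochberg adjustment). Of them, 1 was called higher in shocked colon (1.05%) and 7 lower (7.37%). At an unadjusted p under 0.05 the count was 9. The 8 called features were exactly the 8 tested features with no reads in 1 group, 7 of them unread in shocked colon and 1 unread in control colon. The shares of the 2 groups overlapped for all 95, and each called feature was also unread in some libraries of the group that had it. The 8 features passed the filter through 1 group alone, so their calls record reads in several libraries of 1 group and none in the other, and are no measure of a change in level. With no filter, edgeR called 304 of 598 features, 325 of which were read in 1 library.

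The count of 8 depended on single libraries and on the test. It was 7 without control 1, 15 without shocked 11 and 10 without shocked 14. It was 2 without shocked 13, 15, 17 or 18, 3 without shocked 16, and 4 without control 2, 3 or 4. DESeq2 gave 3 calls, all among the 8, and limma on centred log-ratios gave 2, of which 1 was among them. Fisher's exact test of presence gave 0 after adjustment (13 unadjusted). In edgeR the count was 0 in 1 fit over all 4 groups of the series (18 of 127 unadjusted). It was also 0 of 40 (3 unadjusted) among features read in at least 9 libraries, which leaves out all 8.

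The feature called higher was 932965d7ed2166402b521fea7a1029a4, of rank 38. It was read in none of the 10 control libraries. In shocked colon it took 63 reads in library 13 (2.67% of that library), 41 in 14 (0.435%), 35 in 15 (2.72%), 14 in 17 (2.03%) and 54 in 18 (1.81%), and it had no reads in 11, 12 and 16. It was thus present in 5 of 8 shocked libraries, whose depths ran from 691 to 9418 reads, and unread in 3, which held 448 to 3432. Its mean share in shocked colon was 1.21% ± 1.22 (SD, n = 8; edgeR adjusted p = 0.00379), or 10.9 times the mean floor of the controls. That ratio leaves out the spread between libraries and bounds no change in level. On the same counts, with every control unread, DESeq2 (adjusted p = 0.000876) and limma (adjusted p = 0.00300) also called it. Fisher's exact test of presence did not call it (adjusted p = 0.207). It was called in the 13 edgeR fits that left out another library (adjusted p 0.00177 to 0.00852). Leaving out any of the 5 libraries that held it took it below the filter, so those fits gave no value. In faeces it had reads in 0 of 9 controls and in 1 of 8 shocked libraries and was not tested.

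Among the features called lower, 2 were read most widely in controls. Feature 020f48a69f9bf40e54fbac885f94695a, of rank 44, had 75 reads in control 2, 222 in control 3, 52 in control 4, 21 in control 5, 19 in control 6, 17 in control 7 and 39 in control 10, or 0.209% to 1.45% of those libraries. It had no reads in controls 1, 8 and 9 or in any shocked library. Feature 2dfc021ab6895ae3b4c956d50052f17e, of rank 45, had 74 reads in control 2, 304 in control 3, 34 in control 4, 20 in control 5, 29 in control 6, 15 in control 9 and 12 in control 10, or 0.374% to 1.96%. It too had no reads in any shocked library. These 2 features thus shared 6 of their 7 control libraries. Mean shares in control colon were 0.708% ± 0.637 for rank 44 and 0.680% ± 0.640 for rank 45 (SD, n = 10). These were 2.90 and 2.78 times the mean floor of the shocked libraries, ratios that leave out the spread between libraries. The edgeR adjusted p was 0.00901 for each feature. DESeq2 called both (adjusted p = 0.00184 and 0.00185). Limma did not (adjusted p = 0.108 and 0.120), nor did Fisher's exact test of presence (adjusted p = 0.191 for each). In the edgeR fit over all 4 groups, rank 45 had an adjusted p of 0.0623 and rank 44 was below the filter. The 18 edgeR fits that left out 1 library gave adjusted p of 0.00453 to 0.0309, each of them again against shocked libraries without reads.

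Among the control libraries with fewer than 4000 reads, 5 in number, rank 44 was read in 3 and rank 45 in 4. At 3 reads, the floors of all 8 shocked libraries were below the control means of both features. The highest floor (0.670%) was close to the mean of rank 45 (0.680%), so a slightly higher floor would exceed it. The 15 libraries of at least 1000 reads were also thinned to 1000 reads, in a single draw. There, ranks 38, 44 and 45 were the only 3 features called of 108 tested (edgeR, adjusted p 0.0190, 0.0190 and 0.0202). They were again the only 3 called in those same 15 libraries at full depth, and in libraries of 1000 to 10000 reads alone. DESeq2 also called only these 3. Each of these settings reuses the same features with no reads in 1 group. Whether depth accounts for the absences was not tested.

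The other features called lower, of ranks 82, 85, 97, 109 and 116, were rarer. Rank 82 was read in controls 1 to 5 at 0.142% to 1.76%, and rank 85 in controls 2, 3, 4, 6, 9 and 10 at 0.174% to 0.8998%. Rank 97 was read in controls 2, 3, 4, 6 and 7 at 0.226% to 0.945%. Rank 109 was read in controls 2, 3, 4, 5 and 10 at 0.116% to 0.747%, and rank 116 in controls 2, 3, 4, 6 and 10 at 0.174% to 0.679%. None of these features had a read in shocked colon, and each had an edgeR adjusted p of 0.0292. Their mean control shares ran from 0.207% to 0.337%, close to the mean shocked floor of 0.244%. Control means were 1.38 times that floor for rank 82, 1.31 times for rank 85 and 1.11 times for rank 97. They lay below it for ranks 109 and 116. Only 4 to 6 of the 8 shocked libraries had a floor below these features' control means. All 5 calls were lost when shocked 13, 15, 16, 17 or 18 was left out (adjusted p up to 0.0564). Ranks 82, 97, 109 and 116 also dropped below the filter when any of the 5 controls that held them was left out.

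The 7 features called lower were carried together by a few controls. All 7 were read in controls 2, 3 and 4, where they summed to 4.68%, 5.15% and 5.14% of reads. Controls 5, 6 and 10 held 4 or 5 of them, summing to 4.42%, 2.21% and 3.18%. Controls 7 and 9 held 2 each, at 1.15% and 1.49%, control 1 held 1, at 0.142%, and control 8, the shallowest control with 638 reads, held none. The sum averaged 2.76% ± 2.03 of control reads (SD, n = 10) and was 0 in all 8 shocked libraries. This sum describes features chosen by the same contrast and was not tested.

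**Figure D1:**
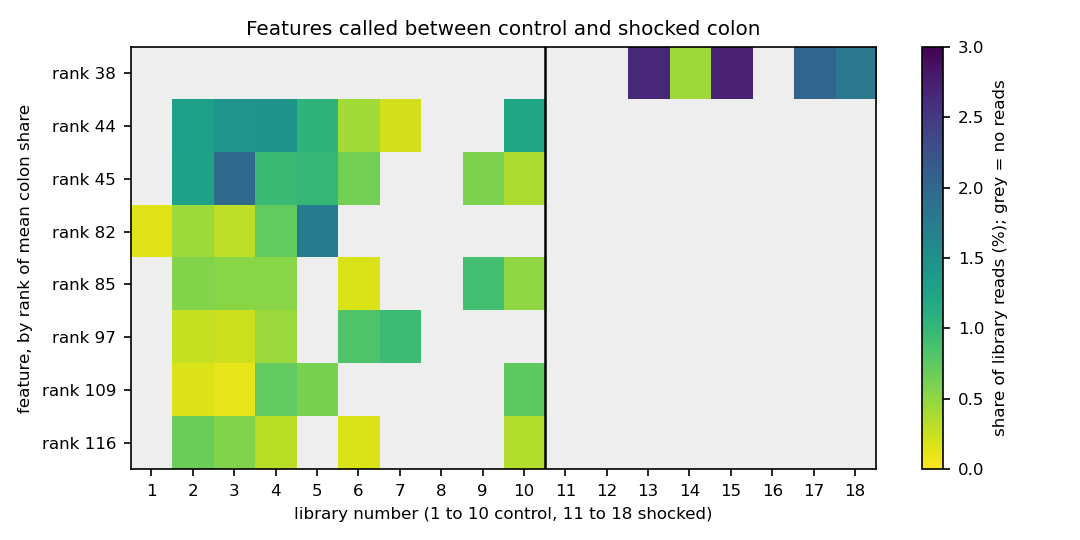
Share of library reads (colour, percent, with grey for no reads) of the 8 features called between control and shocked colon, one row per feature by its rank of mean colon share and one column per library (1 to 10 control, 11 to 18 shocked). Rank 38 appears in 5 shocked libraries alone, and the other 7 features appear in controls alone, all 7 of them in controls 2, 3 and 4.

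The abundant features did not pass the test. The 10 features with the highest mean shares summed to 41.8% ± 11.4 of control reads (SD, n = 10) and 43.95% ± 7.87 of shocked reads (SD, n = 8), and their edgeR adjusted p ran from 0.676 to 0.985. Rank 1 made up 0.662% to 11.7% of control libraries (median 6.59%) and 4.28% to 9.04% of shocked libraries (median 8.24%). Rank 2 followed it, at 0.501% to 10.6% in controls (median 5.81%) and 3.22% to 9.10% in shocked colon (median 6.27%). Both had wide and overlapping ranges in the 2 groups, with control 1 the lowest of all for each. Rank 3 averaged 6.40% ± 3.71 over the 10 controls and 5.38% ± 4.67 over the 8 shocked libraries, and rank 4 averaged 5.39% ± 6.44 and 4.10% ± 5.58. In both, 1 library of each group exceeded 14%, so that the spread within a group was larger than the difference between groups. Rank 5 averaged 4.90% ± 2.19 in controls and 3.12% ± 2.88 in shocked colon.

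Rank 6 had the largest difference in mean share among these 10. It made up 0.627% to 5.32% of control libraries (median 1.71%) and 1.46% to 12.04% of shocked libraries (median 4.91%), and was read in all 18. The mean was 2.12% ± 1.47 over controls (SD, n = 10) and 5.83% ± 4.06 over shocked libraries (SD, n = 8), a ratio of 2.75. The ranges overlapped, and the highest shares lay in shocked 13 (11.7%) and 15 (12.04%), followed by shocked 18 (6.41%) and 17 (5.35%). The edgeR log2 fold change was 0.97 (95% interval -0.32 to 2.25, adjusted p = 0.676). Scaled by library totals alone, it was 1.46 (0.28 to 2.63, edgeR adjusted p = 0.177). Rank 6 also had a higher mean in shocked faeces (7.31% ± 4.25, n = 8) than in control faeces (2.60% ± 2.61, n = 9), where its log2 fold change of 1.60 (0.16 to 3.04) had an edgeR adjusted p of 0.837. The libraries 13, 15, 17 and 18, in which rank 38 exceeded 1.8%, were thus the 4 shocked libraries with the highest share of rank 6. This pattern was noticed in the data and was not tested.

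The remaining features of the 10 showed no call either. Rank 7 averaged 2.89% ± 3.90 in controls and 4.06% ± 3.71 in shocked colon, and rank 9 averaged 2.86% ± 4.11 and 1.86% ± 1.99 (SD, n = 10 and n = 8). Neither was read in any of the 17 faecal libraries. Rank 8 averaged 2.53% ± 2.26 and 3.22% ± 2.96, and rank 10 averaged 2.05% ± 0.835 and 2.79% ± 1.56. Rank 11, the other feature read in every colon library, averaged 2.84% in controls (range 0.454% to 7.47%) and 1.70% in shocked colon (range 0.466% to 3.28%).

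The sign of a small fitted change depended on how libraries were scaled. TMM, the scaling used in the main test, set the median log2 fold change of the 95 features at -0.40, and library totals alone set it at 0.02, a shift of -0.42. Of the 95, TMM gave 31 a higher and 64 a lower fitted level in shocked colon, and library totals gave 49 and 46. Of the 10 most abundant features, 8 had a lower fitted level by TMM and 4 by library totals, and 4 had a lower mean share. Ranks 1, 2, 7 and 8 were lower by TMM and higher by library totals. All 10 intervals spanned 0 by TMM, and 9 of 10 did on library totals, rank 6 being the exception. The intervals of these 10 reached from -3.13 to 2.25 on the log2 scale, with a median half-width of 1.39.

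**Figure D2:**
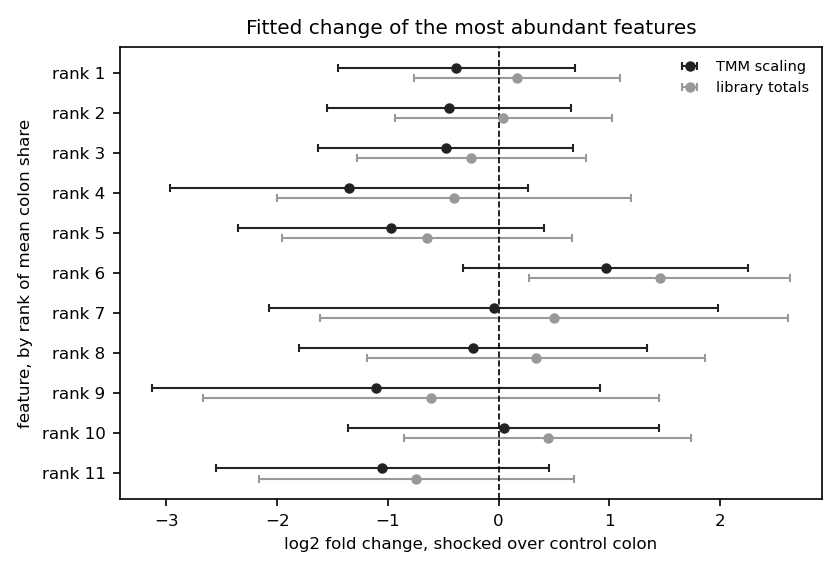
Fitted log2 fold change of shocked over control colon for ranks 1 to 11 (points) with approximate 95% intervals (bars), from edgeR with TMM scaling (black) and with library totals alone (grey). The intervals span 0 for every feature by TMM and for all but rank 6 by library totals, and the library-total values lie to the right of the TMM values.

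The features with the smallest unadjusted p among those not called varied widely within each group. Rank 15 made up 0% to 12.3% of control libraries (median 0.722%) and 0% to 3.57% of shocked libraries (median 0.219%), and the highest control share, in control 7, was 12.3% against 4.38% for the next. Its log2 fold change was -2.40 (95% interval -4.69 to -0.11, edgeR adjusted p = 0.429). Without control 7 it was -0.61 (edgeR adjusted p = 0.998), and DESeq2 gave -0.53 (adjusted p = 0.984). Without control 1 and the libraries under 1000 reads, a setting chosen after seeing the data, it was -3.07 (edgeR adjusted p = 0.0476). Rank 53 averaged 0.509% ± 0.401 of control reads (SD, n = 10) and was read in 8 of 10 controls, against 1 of 8 shocked libraries, number 11, at 0.806% (edgeR adjusted p = 0.642). It was called lower when shocked 11 was left out (edgeR adjusted p = 0.0134). Rank 43 averaged 0.597% ± 0.561 in controls and 0.142% ± 0.212 in shocked colon (edgeR adjusted p = 0.654).

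In the other direction, rank 47 was read in 3 of 10 controls, with 8, 21 and 10 reads, and in 7 of 8 shocked libraries, with 4 to 43 reads. Its mean share was 0.0777% ± 0.160 over controls (SD, n = 10) and 0.723% ± 0.594 over shocked libraries (SD, n = 8), a ratio of 9.30. The edgeR log2 fold change was 2.65 (95% interval -0.46 to 5.76, adjusted p = 0.676), while limma on centred log-ratios called it higher (adjusted p = 0.0356). The highest control share, 0.503%, was in control 5, without which the fitted change was 3.65 (edgeR adjusted p = 0.398). Rank 119 was read in 2 of 10 controls and 3 of 8 shocked libraries, at mean shares of 0.0221% ± 0.0548 and 0.216% ± 0.457, and most of the latter lay in shocked 15 (1.32%). Of the 87 tested features that were not called, 47 had a higher and 40 a lower mean share in shocked colon. The 71 of them not described here averaged 0.0311% to 2.21% of control reads and 0.0173% to 2.94% of shocked reads (edgeR adjusted p 0.676 to 0.995).

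Most colon features were read in few libraries, and the features read in both groups held most reads. Only 6 features were read in all 18 libraries (ranks 1, 2, 3, 6, 10 and 11), and they summed to 26.0% ± 3.97 of control reads (SD, n = 10) and 29.3% ± 5.82 of shocked reads (SD, n = 8). The 40 features read in at least 9 libraries held 68.2% ± 10.7 and 70.6% ± 8.73. None of these 40 was called. Of the 598 colon features, 171 were read in both groups and held 85.1% ± 7.72 of control reads and 91.9% ± 5.81 of shocked reads. Control colon alone held 311 features (227 of them in 1 library), which took 14.9% ± 7.72 of its reads, and shocked colon alone held 116 (98 in 1 library), which took 8.09% ± 5.81. These counts compare 10 deeper with 8 shallower libraries. Of the 95 tested features, 71 were read in a larger share of control libraries, 17 in a larger share of shocked libraries and 7 in equal shares. At an equal depth of 400 reads the split was 65 to 30, and a library held 48.1 ± 11.95 of the 95 over the controls (SD, n = 10) and 37.8 ± 6.77 over the shocked libraries (SD, n = 8). The 95 were chosen at full depth from these unequal groups, which favours features of the controls, and thinning does not undo that choice.

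Differences in diversity did not pass the threshold at equal depth. In 1000 reads, which left out control 8 and shocked 12 and 17, control libraries held 63.5 to 159.5 features (median 108.1) and shocked libraries 46.0 to 114.2 (median 77.6). The ranges overlapped, with control 3 highest and shocked 11 lowest. The means were 106.4 ± 29.0 (SD, n = 9) and 77.1 ± 23.4 (SD, n = 6), and the shocked mean was lower, with a difference of -29.3 (by two-sided exact permutation, p = 0.0583, and adjusted p = 0.292 over 5 measures of diversity). The exact permutation p was 0.0356 without control 7, 0.0230 without control 9 and 0.0245 without shocked 14, before adjustment. In 400 reads, with all 18 libraries, the means were 79.1 ± 24.4 and 58.7 ± 17.5 features (exact permutation p = 0.0658).

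The other measures of diversity did not pass the threshold either. In 1000 reads, Pielou's evenness, which is 1 when all features are equally common, was 0.839 ± 0.0559 over 9 controls and 0.845 ± 0.0330 over 6 shocked libraries (exact permutation p = 0.815, adjusted p = 0.815). The Shannon index, which combines the number of features with their evenness, was 3.89 ± 0.365 and 3.64 ± 0.260 (exact permutation p = 0.170, adjusted p = 0.426). Its unadjusted exact permutation p was 0.0216 without control 7, the library with the lowest index (3.103). The inverse Simpson index, which weighs common features more, was 30.2 ± 11.7 and 24.2 ± 7.87 (exact permutation p = 0.296, adjusted p = 0.493). The 10 most abundant features of each library held 51.4% ± 13.8 of control reads (SD, n = 10) and 53.2% ± 7.56 of shocked reads (SD, n = 8; exact permutation p = 0.744, adjusted p = 0.815). The single most abundant feature of each library held 10.8% ± 4.95 and 10.97% ± 3.54 (exact permutation p = 0.944).

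**Figure D3:**
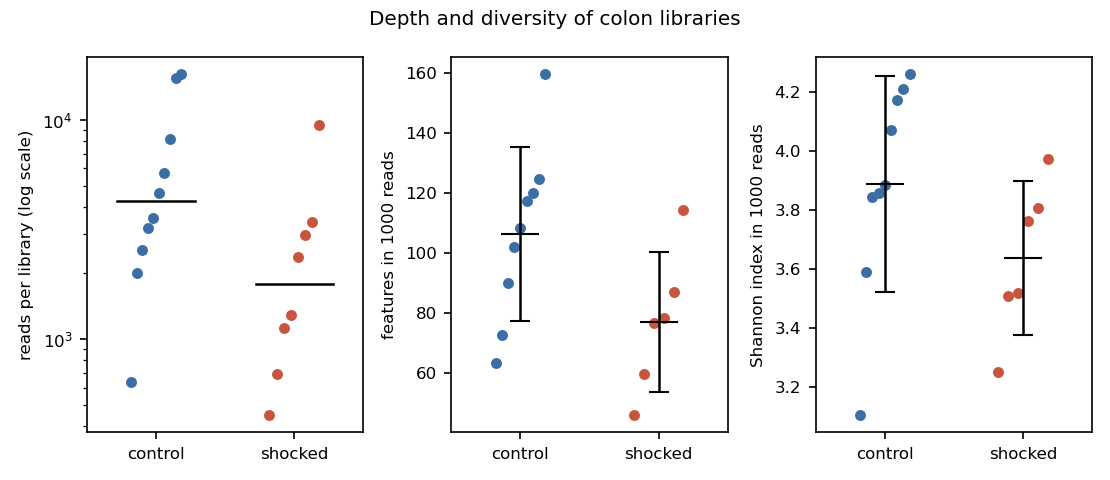
Reads per library on a log scale (left, n = 10 control and 8 shocked, line at the geometric mean), features in 1000 reads (middle) and Shannon index in 1000 reads (right, both n = 9 and 6, bars for mean and SD), one point per colon library. Shocked libraries lie lower on average in each panel and overlap the controls in all of them.

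The share of variation in composition that lay between the treatment groups was small and did not pass the threshold in the main test. On Bray-Curtis distances of read shares it was 8.37% (permutational analysis of variance over all 43758 assignments, exact p = 0.0947). Without control 1 it was 9.19% (exact permutation p = 0.0636), and it passed the threshold without shocked 11 (9.88%, exact permutation p = 0.0430) or shocked 16 (10.3%, exact permutation p = 0.0271). With distances that weigh rare features more, the share was 10.3% for presence and absence in 1000 reads (Jaccard, a single draw, 15 libraries, exact permutation p = 0.0176). It was 8.45% for log-ratios (Aitchison, exact permutation p = 0.0260). On square-root shares (Hellinger) it was 8.02% (exact permutation p = 0.0656). At 1000 reads the Bray-Curtis share was 8.79% (a single draw, 15 libraries, exact permutation p = 0.204). Part of each share is expected without any effect of treatment. That part is larger with fewer libraries, so shares from 15 and 18 libraries are not directly comparable. The log-ratio distance uses full counts and so was not freed of the difference in depth.

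Libraries of a group differed from one another nearly as much as from the other group. Mean Bray-Curtis distance was 0.570 ± 0.103 among controls (SD, 45 pairs), 0.585 ± 0.0718 among shocked libraries (28 pairs) and 0.592 ± 0.0891 between groups (80 pairs). The difference in mean distance within groups was 0.0147, smaller than the spread of either (two-sided exact permutation test, p = 0.763). On the first 2 axes of a principal coordinate analysis, which held 20.6% and 16.4% of the positive eigenvalues, control 1 was alone at one end of axis 1, at 0.476. Shocked 13 (0.425), 17 (0.225), 15 (0.202) and 18 (0.161) were the 4 highest libraries on axis 2, and the other 4 shocked libraries lay at -0.0168 or below. Reads of those 4 libraries ran from 691 to 2982, against 448 to 9418 for the other 4.

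**Figure D4:**
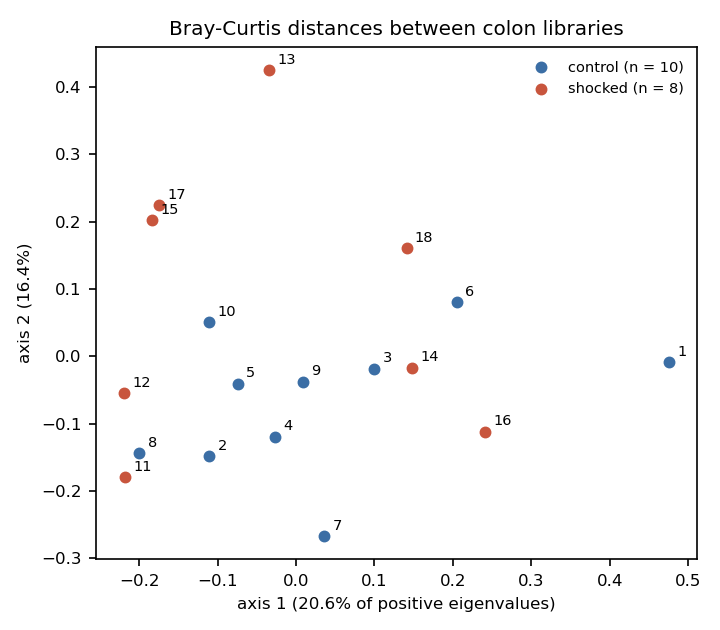
Principal coordinates of Bray-Curtis distances between the 18 colon libraries, axis 1 (20.6% of positive eigenvalues) against axis 2 (16.4%), each point labelled with its library number (blue, control; red, shocked). Control 1 lies apart at 0.476 on axis 1, and shocked 13, 15, 17 and 18 hold the highest values on axis 2.

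The features called in colon were for the most part too rare in faeces to test. Of the 8, 2 could be tested in faeces, ranks 82 and 97, where 2 of 135 features were called in all (1.48%, edgeR). Rank 82 had reads in 6 of 9 control and 0 of 8 shocked faecal libraries, at 0.442% ± 0.393 of control faecal reads (SD, n = 9; edgeR adjusted p = 0.0334). It passed the filter there through controls alone, so this call too is no measure of a change in level. Rank 97 had reads in 4 of 9 control and 1 of 8 shocked faecal libraries and was not called (edgeR adjusted p = 0.983). Rank 45 was read in 2 of 9 and 1 of 8, rank 44 in 1 of 9 and 0 of 8, and rank 85 in 3 of 9 and 1 of 8. A test of the difference in response between the tissues called 0 of 127 features, or 0% (edgeR interaction, 13 unadjusted, lowest adjusted p = 0.221), while DESeq2 called 3 and limma 0 (2 unadjusted). Only 4 of the 8 features could enter that test.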

How the data were processed

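Per the labels' protocols, DNA was extracted with a Qiagen soil kit, amplified over 16S V3-V4 and read on a MiSeq sequencer. The submitters' processing notes name cutadapt, a primer trimmer, whose version is not given in the sources used here, nor are the tool that formed features or any filters. As deposited, the table gives unnormalized counts of reads for each feature, and its lowest count above 0 is 2. Tissue and treatment labels set the groups.

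Features present in 25% or more of a fit's libraries were tested on counts with edgeR 4.0.16 in R 4.3.3 (quasi-likelihood, TMM, full library totals, colon groups alone, Benjamini-Hochberg). That step was also run on simulated data. The simulation did not single out features unread in a whole group, as the called features were, so it does not bear on their calls. Diversity was computed in 1000 reads drawn without replacement (mean of 100 draws, features by exact expectation), and group means and composition were compared by exact enumeration (43758 assignments of 18 libraries, 5005 of 15). Distances and permutations were computed in Python 3.11.15 with numpy 2.4.6. Ratios to a floor use the mean over libraries of the floor of 3 reads. The 95% intervals of fold changes were computed from each fitted fold change and its F statistic, and are approximate.

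Features were described if called, among the 10 highest mean shares, read in all 18 libraries, or among the 3 smallest p per direction not called. Identifiers were printed for at most 2 per direction. The comparison, lists and rules were chosen with earlier results of these data known. In a check of 73 pairs of libraries within groups, none were duplicates within sampling noise (chi-square per degree of freedom at least 8.33 and 19.1 at the median). Alternatives used DESeq2 1.42.0 (poscounts), limma 3.58.1 (centred log-ratios, 0.5 read added), Fisher's exact test, TMMwsp, library totals, other filters, depths and distances, 1 fit over all 4 groups, and each library left out. The faecal library numbered 9 is not analysed here. Figures were drawn with matplotlib 3.10.9.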

Additional observations from a re-analysis of the deposited data

Results flagged for a closer look

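Within a group, 1 library stood apart from the others in 13 of 56 groups of values tested (Dixon's gap test at 95%). The test marks about 1 in 20 by chance only for normally distributed values. Many of these groups held skewed shares or mostly 0, so the count of 13 cannot be judged against that rate. Shocked 14 held 9418 reads, against 448 to 3432 in the other shocked libraries. Among controls, rank 3 made up 14.9% of control 1 (others 1.88% to 8.64%). Rank 4 made up 21.7% of control 7 (others up to 9.99%), as did rank 15 at 12.3% (others up to 4.38%) and rank 119 at 0.172% (others up to 0.0495%). Control 8, with 638 reads, held 13.01% of rank 7 (others up to 4.82%) and 13.95% of rank 9 (others up to 3.47%). Control 5 held 0.503% of rank 47 (others up to 0.139%) and 1.76% of rank 82 (others up to 0.726%). Among shocked libraries, rank 5 made up 9.38% of library 16 (others up to 4.43%), rank 15 made up 3.57% of library 12 (others up to 1.25%) and rank 119 made up 1.32% of library 15 (others up to 0.268%). Rank 53 made up 0.806% of library 11 and had no reads in the other 7 shocked libraries.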

How the results depend on the processing

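The 8 calls, of 95 features tested, became 3 with DESeq2, 2 with limma on centred log-ratios and 0 with Fisher's exact test. They became 304 of 598 with no prevalence filter (110 higher, 194 lower), where 325 features were read in 1 library, and 0 of 40 with a filter at 50% of libraries (3 unadjusted). Without libraries under 1000 reads they became 3, both at full depth and after thinning to 1000 reads, and 3 in libraries of 1000 to 10000 reads. They became 18 without control 1 and libraries under 1000 reads, chosen after seeing the data, and 0 in 1 edgeR fit over all 4 groups (18 unadjusted). They were 2 to 15 with 1 library left out. The cause of these changes was not tested. The interaction of tissue and treatment gave 0 calls in edgeR and in limma, 3 in DESeq2, and 0 of 126 in edgeR with the library number as a replicate block (2 unadjusted). Control and shocked colon share no numbers, so their comparison had no paired analysis.

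With 1 library left out, the difference in features at 1000 reads was -36.8 to -22.7, in the Shannon index -0.350 to -0.175, in evenness -0.00792 to 0.0147, in log2 reads -1.61 to -0.98, in distance within groups -0.00534 to 0.0417, and the share of composition 7.23% to 10.3%. That share passed the threshold with the Jaccard (10.3%) and Aitchison (8.45%) distances.

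Among the features described, changes in sign touched uncalled ones alone. The 8 called features had no reads in 1 group, which fixed their sign in fits on counts and in detection. On library totals the log2 changes of ranks 1, 2, 7 and 8 became 0.17, 0.045, 0.50 and 0.34, and with limma 0.45, 0.32, 1.23 and 0.74. Rank 7 became 0.065 with TMMwsp, 0.059 with no filter, 0.44 with the filter at 50%, 0.60 after thinning, 0.55 without libraries under 1000 reads, 0.29 in libraries of 1000 to 10000 reads and 0.26 also without control 1. Rank 3 became 0.22 in libraries of 1000 to 10000 reads, rank 8 became 0.012 with the filter at 50%, and rank 10 became -0.12 in the fit over all 4 groups. By detection, the difference in the fraction of libraries was 0.10 for ranks 4 and 8 and 0.05 for rank 7. With 1 library left out, rank 7 ran from -0.32 to 0.78, rank 8 from -0.74 to 0.0078 and rank 10 from -0.19 to 0.30.

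Depth limits what an absence shows, since shocked floors averaged 0.244% and the 5 rarer features called lower averaged 0.207% to 0.337% in controls.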

Other observations

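Some of the abundant features varied together across colon libraries. Among the 12 features with the highest mean shares, a choice made after seeing the values, 66 pairs were compared over the 18 libraries, and 4 had a Benjamini-Hochberg adjusted p under 0.05, all with shares that ran in the same direction. The p-values come from a permutation test of 100000 resamples, whose smallest value here is 1e-05.

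Ranks 7 and 12 were the closest pair (Pearson r = 0.940, adjusted permutation p = 0.00033; Spearman rho = 0.936, adjusted permutation p = 0.00066). The r was 0.923 without the 2 libraries farthest from the median of rank 7, 0.968 within controls and 0.991 within shocked colon. Rank 9 ran with both, at r = 0.935 and rho = 0.791 with rank 12 (adjusted permutation p = 0.00033 and 0.00286) and r = 0.835 and rho = 0.791 with rank 7 (adjusted permutation p = 0.00099 and 0.00286). Without the 2 farthest libraries these fell to r = 0.726 and 0.668. Ranks 7 and 9 were both unread in controls 1 and 7 and in shocked 13. Both were highest in control 8, the library with 638 reads, at 13.01% and 13.95%.

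Ranks 1 and 2, the most abundant features, had r = 0.831 (adjusted permutation p = 0.00099) and rho = 0.761 (adjusted permutation p = 0.00677). The r was 0.696 without the 2 farthest libraries, 0.882 within controls and 0.653 within shocked colon. Shares within a library add to a whole, and reads of 1 bacterium can be split over several features, neither of which was tested here.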
